A study of Mus musculus with 60 samples.

Results

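The comparison sets tumours labelled sarcoma against samples labelled muscle in mice of a line that carries a CD74-NRG1 fusion transgene. Libraries were taken by the tissue name in their labels. They were 7 sarcoma libraries from 6 mice and 6 muscle libraries from 6 mice, 13 of the 60 libraries of the series. The 2 sarcoma libraries of mouse M00245, named T1 and T2, were summed, so each group held 6 mice. Sarcoma and muscle both came from mice M00237, M00238, M00245 and M00248. Mice M00235 and M00236 gave a sarcoma only, and mice M00246 and M00249 a muscle only.

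All 13 libraries carry the mouse line label Rosa26CD74-NRG1/Flp. The line came from a cross of Rosa26FSF.CD74-NRG1 mice with a Rosa26Flp deleter strain, in which Flp recombinase removes a stop cassette early in the embryo and the fusion is then made in nearly every tissue. By these labels the muscle controls carry the transgene too, and none is labelled as free of it. No label states an age or the body site of a sample. RNA from sections of fresh frozen tissue was read by 3' end sequencing (QuantSeq), which counts fragments near the end of each transcript.

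NRG1 is a growth factor of the EGF family whose main receptor is ERBB3, which has a weak kinase of its own and signals through its partner ERBB2 to the ERK and AKT pathways. In normal development NRG1 on axons keeps Schwann cell precursors, the glia of peripheral nerves, alive and dividing. Those cells arise from the neural crest and depend on the transcription factor SOX10. CD74-NRG1 fusions in human tumours display the EGF-like part of NRG1 at the cell surface. Skeletal muscle is built of fibres filled with sarcomeres, while stratified epithelium is a layered lining such as skin or oral mucosa that makes keratins and a cornified envelope.

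Total counts were 4837478 to 7953167 per sarcoma library and 7705676 to 10033980 per muscle library, and mitochondrial genes took 5.56 to 13.4% of counts in sarcomas and 21.1 to 34.8% in muscles. Levels are given as TMM-scaled CPM, which sets each library to the same total after scaling by the trimmed mean of M values. Plain CPM leaves that scaling out. The scaling factors were 0.65 to 0.803 in muscles and 1.06 to 1.56 in sarcomas. In bulk tissue, fewer cells of a type and less RNA per cell cannot be told apart.

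Some libraries stood apart from their group. The muscle of M00246 had 1.3 plain CPM of Nrg1, against 26.4 to 38.5 in the other 5 muscles, and the liver, spleen and lung of that mouse had 0.675, 2.34 and 5.36, against 8.16 to 111 in the liver, lung, spleen and muscle of the other mice. The label of that mouse names the same transgene line as the others, and whether its low Nrg1 reflects its genotype was not tested. The sarcoma of M00238 had the highest sarcomere level among the sarcomas. T2 of M00245 had 30.9 plain CPM of Y-linked genes, against 225 in T1 of the same mouse and 192 to 251 in the other 5 sarcoma libraries. Leaving out the muscle of M00246 and the sarcoma of M00238 together, a setting chosen after seeing the data, gave 9019 called genes in place of 9545, and taking T1 or T2 alone for M00245 gave 9536 and 9314.

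Of 14697 genes tested with edgeR's quasi-likelihood test, 9545 (64.9%) passed a Benjamini-Hochberg adjusted p of 0.05. Of the tested genes, 4931 (33.6%) were higher and 4614 (31.4%) lower in sarcoma, with a median log2 fold change over all tested genes of 0.06. Groups did not overlap for 6360 genes (43.3%), with the sarcomas above for 20.4% and the muscles above for 22.8%. Tested against a log2 fold change of 1 instead of 0, 2033 genes (13.8%) were higher and 2260 (15.4%) lower. Most genes of the table thus differed, and each list below is to be read against these shares.

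Sox10, the transcription factor of neural crest and glia, was at 393 TMM-scaled CPM in the lowest sarcoma, 443 at the median and 673 in the highest, and at 6.13, 8.38 and 13.0 in the muscles. Every sarcoma lay far above every muscle, with a log2 fold change of 5.67 (SE 0.24, adjusted p 3e-09). Erbb3, the receptor of NRG1, ranged from 144 to 229 TMM-scaled CPM in sarcomas (median 200) and from 21.4 to 27.6 in muscles (median 22.7). The groups did not overlap, and the log2 fold change was 3.03 (SE 0.16, adjusted p 8.1e-09).

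Myh4, the myosin heavy chain of fast glycolytic muscle fibres, was at 8.31, 28.1 and 116 TMM-scaled CPM in the lowest, median and highest sarcoma and at 6778, 12674 and 15036 in the muscles. All muscles were above all sarcomas, with a log2 fold change of -8.16 (SE 0.78, adjusted p 8.7e-07), or -8.81 without the sarcoma of M00236, which was highest. Krt13, a keratin of the non-cornified layers of mucosal epithelium, spanned 14.1 to 42.5 TMM-scaled CPM in sarcomas (median 21.8) and 16620 to 32894 in muscles (median 22638). Its groups were also apart, at a log2 fold change of -9.8 (SE 0.46, adjusted p 4.6e-09). The label muscle thus held for the sarcomere genes in all 6 muscle libraries, and the same 6 libraries held keratins of a stratified epithelium.

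**Figure D1:**
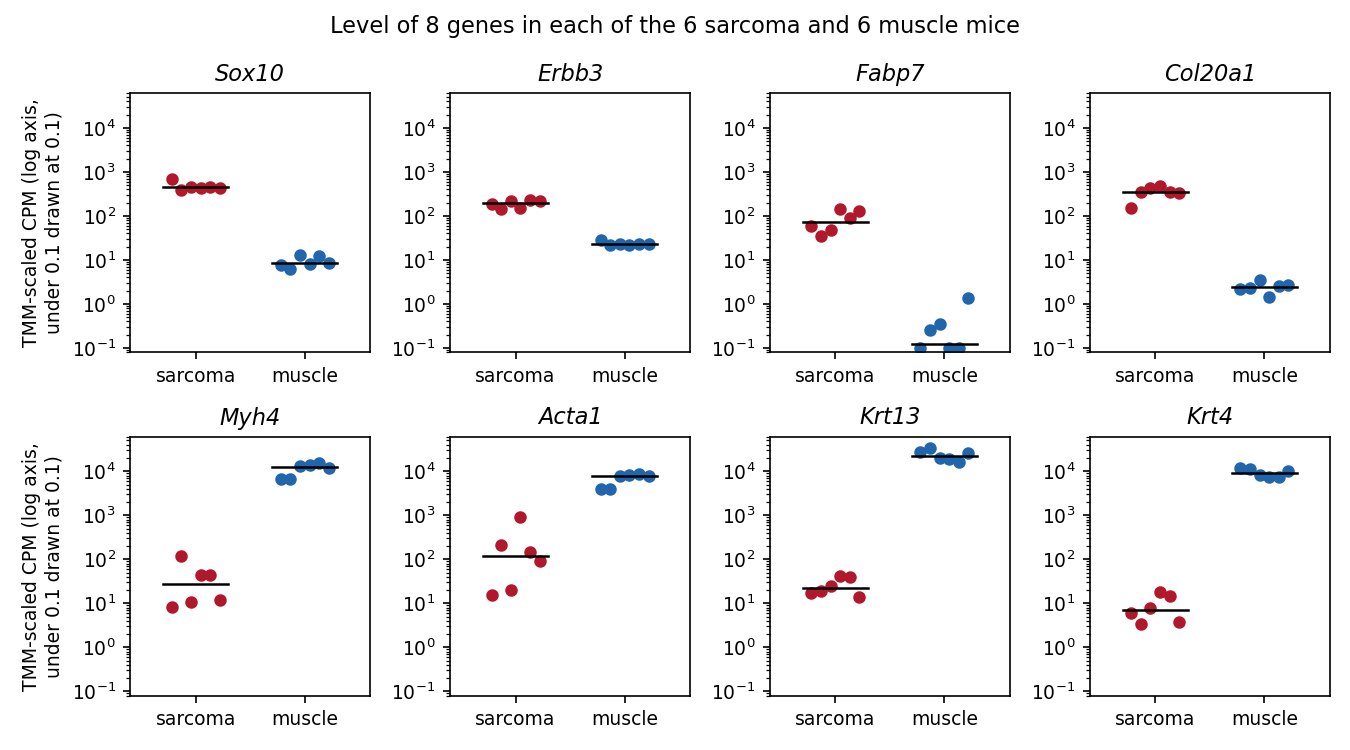
Level of 8 genes, in TMM-scaled CPM on a log axis, with 1 point per mouse (6 sarcomas in red, 6 muscles in blue) and the group median as a line. Sox10, Erbb3, Fabp7 and Col20a1 were higher in every sarcoma, and Myh4, Acta1, Krt13 and Krt4 were higher in every muscle.

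The 3 skeletal muscle lists (sarcomere, calcium handling, energy metabolism) together took 4.23 to 8.11% of counts in the muscle libraries and 0.13 to 1.38% in the sarcoma libraries. The 3 stratified epithelium lists (keratins, cornified envelope, cell junctions) took 2.92 to 8.72% in muscles and 0.101 to 1.39% in sarcomas. Schwann lineage lists ran the other way, with 0.871 to 1.26% in sarcomas against 0.0688 to 0.0882% in muscles. Collagen chains took 1.07 to 3.68% of counts in the sarcomas and 0.0518 to 0.0583% in the muscles. Neither the muscle range nor the epithelium range of the sarcomas reached that of the muscles, although both spread widely among the sarcomas.

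**Figure D2:**
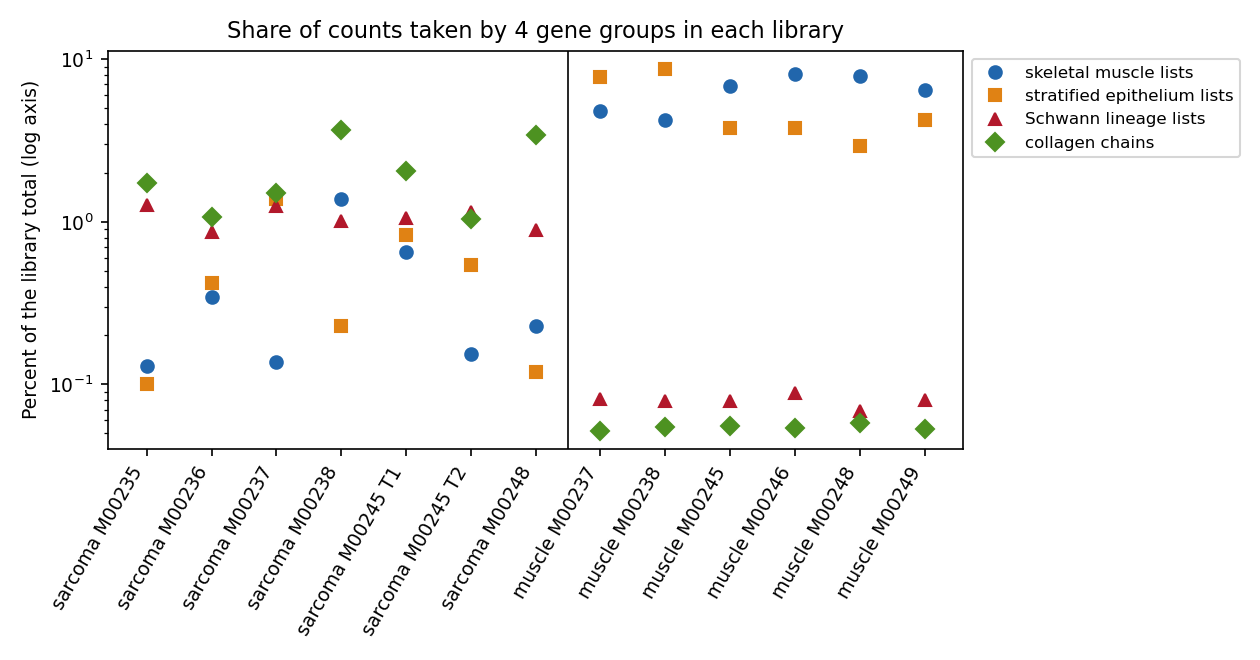
Share of the library total, in percent on a log axis, taken by skeletal muscle lists, stratified epithelium lists, Schwann lineage lists and collagen chains in each of the 7 sarcoma and 6 muscle libraries. In the muscles the first 2 groups lie between 2.92 and 8.72% and the last 2 below 0.0882%. In the sarcomas Schwann lineage genes lie between 0.871 and 1.26%.

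Skeletal muscle genes were lower in sarcoma almost without exception. Of the 68 genes tested in the 3 lists together, 63 were lower, 1 was higher and 4 did not pass, with a median log2 fold change of -5.01. Of 32 sarcomere genes tested, 27 were lower, and 7 further members had too few counts to be tested, among them the slow and cardiac genes Myh7, Myl2 and Myl3, all at most 0.903 plain CPM. All 19 calcium handling genes tested and all 17 genes of muscle energy metabolism were lower, with medians of -4.92 and -5.28. Without the sarcoma of M00238 the sarcomere median was -6.28, the calcium median -5.83 and the energy median -6.31.

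Acta1, the actin of the skeletal muscle thin filament, was at 15.1, 117 and 891 TMM-scaled CPM in the lowest, median and highest sarcoma and at 3873, 7780 and 8541 in the muscles. The groups did not overlap, and the log2 fold change was -4.88 (SE 0.89, adjusted p 0.00029), or -6.13 without the sarcoma of M00238. Titin (Ttn), the spring that spans the sarcomere, ranged from 20.9 to 1280 in sarcomas and from 3215 to 15754 in muscles, a log2 fold change of -4.47 (SE 0.96, adjusted p 0.001), or -5.44 without that sarcoma. Tpm3, a tropomyosin that many non-muscle cells also make, was the 1 sarcomere gene that was higher, at 190 to 282 in sarcomas and 102 to 207 in muscles (log2 fold change 0.69, SE 0.18, adjusted p 0.0041). With mouse as a block in the 4 mice that gave both tissues, that call was lost (log2 fold change 0.55, adjusted p 0.098). Myh2, Actn3, Myh8 and Mybpc2 did not pass, and their groups overlapped. Without the sarcoma of M00238, Mybpc2 was lower (log2 fold change -2.86, adjusted p 0.0066), as it was without the muscle of M00238 (adjusted p 0.048). Myh8 was lower without the sarcoma of M00238 or the muscles of M00237 or M00238 (adjusted p 0.019 to 0.047).

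Sarcolipin (Sln), a small inhibitor of the calcium pump, was at 0.877, 4.0 and 7.0 TMM-scaled CPM in the lowest, median and highest sarcoma and at 570, 1353 and 1472 in muscles, a log2 fold change of -8.18 (SE 0.62, adjusted p 1.2e-07). The pump itself, Atp2a1, was at 40.9 in the median sarcoma and 4991 in the median muscle (log2 fold change -5.92, SE 0.95, adjusted p 9.7e-05), or -6.91 without the sarcoma of M00238. Creatine kinase Ckm, which buffers ATP in muscle, spanned 1.78 to 218 in sarcomas and 1537 to 3807 in muscles (log2 fold change -5.75, SE 1.01, adjusted p 0.00022), or -7.1 without that sarcoma. All 3 had groups that did not overlap.

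Among the regulators of muscle identity, 9 of 11 tested were lower, Pax3 was higher and Myod1 did not pass. Tbx1, a transcription factor known for its part in head and throat muscle, was at 0.194, 1.22 and 1.33 TMM-scaled CPM in the lowest, median and highest sarcoma and at 51.6, 109 and 125 in the muscles. The groups did not overlap (log2 fold change -6.58, SE 0.4, adjusted p 2.4e-08). Myod1, a master switch of myogenesis, was at 0 to 5.62 in sarcomas and 1.81 to 5.44 in muscles (log2 fold change -1.96, SE 0.98, adjusted p 0.093). Without the sarcoma of M00236, its highest, Myod1 was lower at -4.34 (adjusted p 0.00017) and the median of the list moved from -2.45 to -3.88, while with mouse as a block Myod1 was lower at -4.22 (adjusted p 0.0055). Pax3, which acts in muscle precursors and in the neural crest, ranged from 12.7 to 24.2 in sarcomas and from 2.23 to 11.6 in muscles, a log2 fold change of 1.35 (SE 0.32, adjusted p 0.0019) with no overlap.

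Promoters of the lower muscle and epithelium genes were searched for short motifs, and a few matches are shown because the shares of windows that hold them differ between the lists. Windows of 300 bases, from 250 before to 50 after each transcript start, came from RefSeq promoters on GRCm38.p6, and 44 of the 63 lower skeletal muscle genes had at least 1 of them, 54 windows in all. CAGCTG, an E box letter set known from myogenic factors and its own reverse complement, was in 28 of the 54 windows (51.9%), against 16.3% of all 32851 windows. The MEF2 motif, read on both strands, was in 14.8% of them against 3.69% of all. The E box of 3 promoters is in capitals, 5′ to 3′ on the strand of the gene, at chr11:67237736-67237759 (plus strand, 67 bases before the start) for Myh4, at chr8:123894982-123895005 (minus strand, 221 bases before) for Acta1 and at chr7:126463114-126463137 (minus strand, 55 bases before) for Atp2a1.
Myh4: cagctaggaCAGCTGaggtggctg
Acta1: aggggcagaCAGCTGgggatactc
Atp2a1: cataaggacCAGCTGggggctggg
A match describes the letters of these windows only.

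Stratified epithelium genes were lower as well. Of the 71 genes tested in the 3 epithelium lists together, 60 were lower, 5 higher and 6 did not pass, with a median log2 fold change of -3.55. The keratins held 14 lower and 4 higher of 20 tested, and the genes of the cornified envelope 24 lower and 1 higher of 27. All but 2 of 24 junction genes tested were lower, the exceptions being Cldn1 (log2 fold change 0.14, adjusted p 0.55) and Epcam (-0.01, adjusted p 0.98). Keratins, Sprr and Lce genes lie in families of near-identical members whose 3' ends can share reads, so single values among them are uncertain.

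Krt4, the partner of Krt13, was at 3.47, 6.92 and 18.4 TMM-scaled CPM in the lowest, median and highest sarcoma and at 7317, 9154 and 11882 in muscles (log2 fold change -10.02, SE 0.56, adjusted p 1.2e-08). Krt76, a keratin of the palate and gum, ranged from 1.46 to 3.9 in sarcomas and from 1302 to 4406 in muscles (log2 fold change -9.83, SE 0.49, adjusted p 6.1e-09). Krt36 and Krt84, hard keratins found in hair, nail and the papillae of the tongue, were at 229 to 4383 and 108 to 1052 in muscles and at most 4.61 and 1.51 in sarcomas. Loricrin (Lor), the main protein of the cornified envelope, spanned 32.4 to 303 in sarcomas and 2619 to 5525 in muscles, a log2 fold change of -4.84 (SE 0.62, adjusted p 1.4e-05). None of these 5 overlapped between groups.

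Basal layer keratins differed less. Krt5 ranged from 49.0 to 504 TMM-scaled CPM in sarcomas and from 579 to 1346 in muscles, a log2 fold change of -1.99 (SE 0.52, adjusted p 0.0041) without overlap. Krt14, its partner, ranged from 40.4 to 605 and from 405 to 2030 with overlap (log2 fold change -2.16, SE 0.66, adjusted p 0.01). Desmoplakin (Dsp), which anchors keratin to cell junctions, was lower at 28.9 to 329 against 1101 to 2814 (log2 fold change -3.39, SE 0.58, adjusted p 0.00017), and so was Trp63, the regulator of stratified epithelia, at 1.07 to 18.3 against 28.2 to 41.9 (log2 fold change -2.06, SE 0.51, adjusted p 0.0027).

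The 4 higher keratins were Krt1, Krt2, Krt77 and Krt79, and the higher gene of the cornified envelope was Flg2. Krt1, a keratin of the upper layers of skin, was at 12.3, 105 and 365 TMM-scaled CPM in the lowest, median and highest sarcoma and at 1.25, 2.69 and 6.0 in muscles. No sarcoma overlapped a muscle (log2 fold change 5.41, SE 0.86, adjusted p 8.7e-05). Krt77, a keratin of skin and sweat ducts, was at 8.31 to 171 against 0 to 0.736 (log2 fold change 7.69, SE 0.73, adjusted p 9.1e-07), and Flg2, a filaggrin relative of the cornified layer, at 7.48 to 95.9 against 0 to 0.512 (log2 fold change 7.33, SE 0.86, adjusted p 6.1e-06). Both were without overlap. Krt2 reached 741 in the sarcoma of M00237 and 0.165 in the lowest, and its log2 fold change of 7.34 (SE 1.81, adjusted p 0.0027) was 4.09 (adjusted p 0.0061) without that sarcoma. Krt10, the partner of Krt1, did not pass (log2 fold change 0.11, SE 0.87, adjusted p 0.92), with 104 to 2430 in sarcomas and 112 to 1762 in muscles. Its log2 fold change was -1.13 without the sarcoma of M00237 and 0.83 without the muscle of M00238, and it passed in neither. The epithelium lists together had their highest share among sarcomas in M00237 (1.39%).

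Of the 60 epithelium genes that were lower, 31 had a promoter window, 38 windows in all. TATAAA, the TATA type motif, read on both strands, was in 11 of them (28.9%), against 13.6% of all windows and 13% of those of the lower muscle genes. The muscle E box was in 18.4% of the epithelium windows. The motif is shown in capitals, 5′ to 3′ on the strand of the gene, at chr3:92083155-92083178 (minus strand, 27 bases before the start) for Lor and at chr15:101892935-101892958 (minus strand, 29 bases before) for Krt76.
Lor: ggacaagagTATAAAacacaggag
Krt76: agcctgggaTATAAAggccagctt
Rptn, a repetin of the cornified envelope, was at 1.17 to 21.5 TMM-scaled CPM in sarcomas and 957 to 2765 in muscles (log2 fold change -7.47, SE 0.75, adjusted p 1.5e-06).

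The 6 muscle libraries differed among themselves. Those of M00237 and M00238, whose sample codes are written in another style than the other 4, had 51491 and 59879 plain CPM of keratins against 20062 to 28413 in the other 4, and 35215 and 30364 plain CPM of sarcomere genes against 45621 to 60780. This difference was used to sort the lower genes, as a description chosen after seeing the data and with no test. A gene was placed on the epithelium side when its mean in those 2 libraries was over 0.5 log2 units above its mean in the other 4, and on the muscle side when it was as far below. The sides restate the sums that set these libraries apart: 30 of 32 sarcomere genes were on the muscle side, and 16 of 20 keratins and 24 of 27 cornified envelope genes on the epithelium side. Genes of other cell types were on the muscle side too, with 14 of 14 endothelial and 5 of 5 erythroid genes, so a side does not name a tissue.

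Over all 14697 genes tested, 2359 were on the epithelium side and 3424 on the muscle side. Of the 4614 genes lower in sarcoma, 992 were on the epithelium side, 1301 on the muscle side and 2321 between. Among the 2260 genes lower by more than a log2 fold change of 1, the counts were 609, 906 and 745. Of the 4931 genes higher in sarcoma, 502 were on the epithelium side, 1077 on the muscle side and 3352 between. Over all genes tested, 8914 were between.

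The same rule placed genes outside the lists on both sides, and those described here were chosen after their values were seen. Also on the epithelium side were the ribosomal protein genes Rplp2 and Rpl27a (0.65 and 0.61 log2 units), and on the muscle side Fth1 (-0.62). On the epithelium side, Slpi, a protease inhibitor of mucosal fluids, had means of 2986 TMM-scaled CPM in the 2 epithelium-rich muscles, 1191 in the other 4 and 6.18 in sarcomas (log2 fold change -8.18, SE 0.61, adjusted p 1.1e-07). Aldh3a1, a detoxifying aldehyde dehydrogenase abundant in cornea and mucosa, had means of 2047, 1179 and 6.73 in the same order (log2 fold change -7.76, SE 0.5, adjusted p 3.7e-08). On the muscle side, Chchd10, a mitochondrial protein abundant in muscle, had means of 612, 1160 and 13.1 (log2 fold change -6.22, SE 0.55, adjusted p 4.8e-07). Hspb6, a small heat shock protein of muscle, had means of 811, 1389 and 27.6 (log2 fold change -5.44, SE 0.6, adjusted p 3.5e-06).

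**Figure D3:**
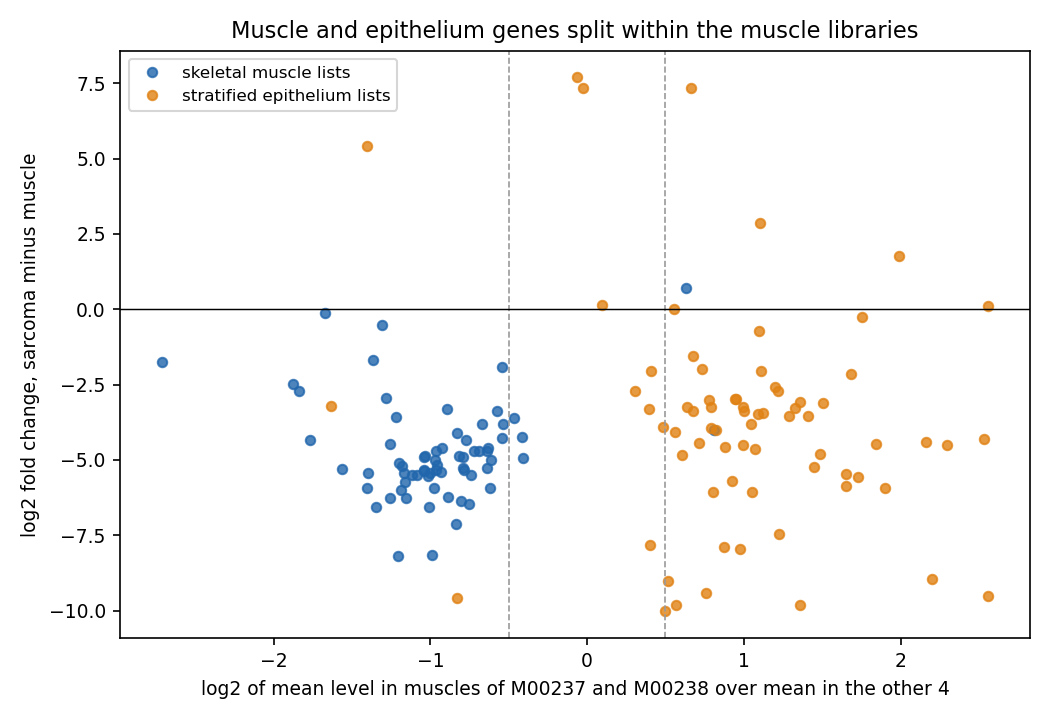
Each point is 1 gene of the skeletal muscle lists (blue) or stratified epithelium lists (orange). The horizontal axis is log2 of its mean level in the muscles of M00237 and M00238 over its mean in the other 4, the vertical axis its log2 fold change in sarcoma, and dashed lines mark 0.5 on either side. Muscle genes lie mostly left of the lines and epithelium genes right of them, and most of both are below 0.

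Genes of mitochondrial respiration were mostly lower. All 20 nuclear genes of oxidative phosphorylation were lower without overlap (median log2 fold change -2.85), and 11 of 13 genes of the mitochondrial genome were lower (median -3.21). The others, mt-Co3 and mt-Nd4l, did not pass (adjusted p 0.15 and 0.086) but were lower with mouse as a block (adjusted p 0.038 and 0.033). Atp5b, the catalytic subunit of ATP synthase, was at 132, 163 and 191 TMM-scaled CPM in the lowest, median and highest sarcoma and at 868, 1295 and 1435 in muscles (log2 fold change -2.87, SE 0.19, adjusted p 4.6e-08). In the muscle libraries 18 of the 20 nuclear genes were on the muscle side. Of 20 glycolysis and hypoxia genes 13 were lower and 7 did not pass. Among the lower was Hk2, a hexokinase, at 4.75 to 41.2 in sarcomas and 243 to 435 in muscles (log2 fold change -4.1, SE 0.44, adjusted p 2.5e-06). Hk1, Pfkp and Eno1 did not pass, with log2 fold changes of 0.24, -0.13 and -0.27 (adjusted p 0.24, 0.36 and 0.19).

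Transcription factors of neural crest and glia were higher in sarcoma. Of 17 tested, 14 were higher, 2 lower and 1 did not pass, with a median log2 fold change of 2.32, and 1 further member, Sox8, had too few counts. Tfap2a, an AP-2 factor and 1 of those lower (log2 fold change -0.44, adjusted p 0.048), lost its call without any of the muscles of M00237 and M00238 or the sarcomas of M00235, M00236, M00238, M00245 and M00248 (adjusted p 0.065 to 0.11), and with mouse as a block (adjusted p 0.11). Foxd3, a factor of early neural crest, was at 83.4, 177 and 234 TMM-scaled CPM in the lowest, median and highest sarcoma and at 1.53, 2.72 and 5.63 in muscles (log2 fold change 5.78, SE 0.36, adjusted p 3.2e-08). Tfap2b, an AP-2 factor of the neural crest, ranged from 86.0 to 566 in sarcomas and from 1.74 to 9.19 in muscles (log2 fold change 5.65, SE 0.62, adjusted p 3.3e-06). Pou3f1, a factor of Schwann cells just before myelination, ranged from 166 to 455 and from 4.59 to 17.8 (log2 fold change 5.23, SE 0.38, adjusted p 9.2e-08). None of the 3 overlapped.

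Some factors of the neural crest were higher with overlapping groups, and others were not higher. Egr2, the switch to myelination, was higher but low in both groups, at 2.14 to 12.9 TMM-scaled CPM in sarcomas and 0.835 to 3.68 in muscles (log2 fold change 2.14, SE 0.45, adjusted p 0.00093). Snai2 did not pass (log2 fold change -0.21, SE 0.21, adjusted p 0.4). Msx2 was lower, at 0.388 to 1.27 in sarcomas against 2.39 to 25.4 in muscles (log2 fold change -3.77, SE 0.67, adjusted p 0.00025). Sox2 and Twist1 passed with overlapping groups (log2 fold changes 0.81 and 0.76, adjusted p 0.033 and 0.026). Sox2 rested on few samples, and its call was lost without any of the muscles of M00245, M00246, M00248 and M00249 or the sarcomas of M00235 and M00245 (adjusted p 0.065 to 0.097), and with mouse as a block (0.42, adjusted p 0.26). The Twist1 call was lost without any of the muscles of M00237, M00246, M00248 and M00249 or the sarcomas of M00237 and M00238 (adjusted p 0.053 to 0.071).

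The list of Schwann cell precursor genes, mostly of surface and adhesion proteins, had 18 of 18 tested higher, with a median log2 fold change of 3.35. It shares Sox2 with the list of factors. Without the muscle of M00246 16 were higher, and with mouse as a block also 16, against 28.1% of all genes in that fit. Ncam1, a neural adhesion molecule, was at 550, 656 and 773 TMM-scaled CPM in the lowest, median and highest sarcoma and at 16.6, 21.5 and 23.0 in muscles, which did not overlap (log2 fold change 5.01, SE 0.17, adjusted p 6.3e-10). Cdh19, a cadherin of early Schwann lineage cells, ranged from 91.1 to 220 in sarcomas and from 4.45 to 6.31 in muscles (log2 fold change 5.04, SE 0.24, adjusted p 4.7e-09). Fabp7, a fatty acid binding protein of precursors, ranged from 34.4 to 145 and from 0 to 1.35 (log2 fold change 8.06, SE 0.66, adjusted p 2.2e-07), or 9.22 without the muscle of M00249. S100b and Ngfr, both markers of Schwann cells, were higher by log2 fold changes of 4.7 (SE 0.28, adjusted p 2.3e-08) and 3.27 (SE 0.16, adjusted p 6.1e-09). Itga6 was the smallest difference (0.35, adjusted p 0.021), and its call was lost without the muscle of M00246 (0.3, adjusted p 0.066) and with mouse as a block (0.27, adjusted p 0.21).

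Myelin genes split. Of 13 tested, 5 were higher, 4 lower and 4 did not pass, with a median of -0.14, or -0.99 over 14 tested without the sarcoma of M00245. Gjc3, a glial connexin, was at 167, 199 and 240 TMM-scaled CPM in the lowest, median and highest sarcoma and at 1.25, 4.12 and 8.7 in muscles (log2 fold change 5.49, SE 0.39, adjusted p 8.1e-08). Prx and Ncmap, proteins of mature myelin sheaths, were lower instead, at 0.331 to 2.73 and 0.496 to 2.51 in sarcomas against 3.62 to 16.1 and 3.76 to 21.7 in muscles (log2 fold changes -2.36, SE 0.44, adjusted p 0.00031, and -3.18, SE 0.47, adjusted p 4.9e-05). None of these 3 overlapped between groups, and Mbp did not pass (log2 fold change -0.14, SE 0.36, adjusted p 0.74).

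For scale, Sox10 was at 51.5 to 53.3 plain CPM in 2 brains and at most 2.12 in any liver, lung or spleen. Of 8 genes of melanocytes, the pigment cells that also come from the neural crest, 5 had too few counts to be tested, and Mitf did not pass (log2 fold change -0.05, SE 0.21, adjusted p 0.84). Of 12 neuron genes 10 had too few counts, and Stmn2, a protein of growing axons, was lower (log2 fold change -2.54, SE 0.5, adjusted p 0.00053), or -3.16 without the sarcoma of M00237. Of the 36 higher genes of the Schwann lineage lists, 22 had a RefSeq promoter window, and the SOX type letters ACAAAG, read on both strands, were in 10 of 38 windows (26.3%) against 18.7% of all and 1.85% of those of the lower muscle genes.

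Of the 2 genes joined in the fusion, Cd74 was higher in sarcoma and Nrg1 did not pass. Cd74, which also has a part in antigen presentation, was at 28.5, 70.5 and 127 TMM-scaled CPM in the lowest, median and highest sarcoma and at 20.5, 34.3 and 44.9 in muscles, which overlapped (log2 fold change 1.17, SE 0.29, adjusted p 0.0029). Nrg1 was at 13.9, 24.3 and 48.5 in sarcomas and at 1.75, 39.0 and 57.5 in muscles, and did not pass (log2 fold change -0.38, SE 0.51, adjusted p 0.54). Without the muscle of M00246 the Nrg1 difference was -0.65 (adjusted p 0.077). In plain CPM, Nrg1 ranged from 15.7 to 101 in sarcoma libraries and from 26.4 to 38.5 in the muscles other than M00246. The scaling factors were lower in muscles than in sarcomas, and how far the Nrg1 difference depends on them was not tested. Whether transcripts of the fusion are counted under Nrg1 or Cd74 is not given in the sources used here.

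Of the other ErbB receptors none was higher. Erbb2, the partner of Erbb3, was at 13.1, 21.0 and 24.1 TMM-scaled CPM in the lowest, median and highest sarcoma and at 15.2, 17.5 and 21.4 in muscles, which overlapped (log2 fold change 0.14, SE 0.16, adjusted p 0.45). Egfr did not pass either (log2 fold change -0.27, SE 0.19, adjusted p 0.22). Erbb4, the other NRG1 receptor, was near 0 in sarcomas (at most 0.713) and at 2.25 to 8.24 in muscles (log2 fold change -4.36, SE 0.63, adjusted p 3.8e-05), or -5.06 without the sarcoma of M00235. Over 13 genes of ErbB receptors, ligands and brakes tested, 2 were higher, 8 lower and 3 did not pass.

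Ligands of EGFR were mostly lower. Ereg, Btc, Egf and Tgfa, all of them growth factors made by epithelia among other tissues, had log2 fold changes of -3.72 (SE 0.62), -2.65 (SE 0.45), -2.54 (SE 0.29) and -3.34 (SE 0.37), and none overlapped between groups (adjusted p 0.00013, 0.00017, 4.2e-06 and 3.3e-06). Hbegf, which binds EGFR and ERBB4, was higher at 31.9 to 133 TMM-scaled CPM in sarcomas against 13.3 to 22.4 in muscles (log2 fold change 1.72, SE 0.32, adjusted p 0.00031).

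Genes known to be induced by ERK signalling, many of them its own brakes, were mostly higher: 13 of 17 tested, with 1 lower and 3 not passing and a median log2 fold change of 1.71. Dusp6, a phosphatase that switches ERK off, was at 136, 206 and 240 TMM-scaled CPM in the lowest, median and highest sarcoma and at 27.2, 30.4 and 53.1 in muscles, without overlap (log2 fold change 2.56, SE 0.2, adjusted p 1.5e-07). Spred1 and Spry1, inhibitors of the pathway upstream of RAF, were higher without overlap by log2 fold changes of 2.1 (SE 0.15, adjusted p 8.6e-08) and 1.81 (SE 0.2, adjusted p 3.6e-06). Etv1, an ETS factor, ranged from 67.1 to 524 in sarcomas and from 8.01 to 14.9 in muscles (log2 fold change 4.12, SE 0.46, adjusted p 3.6e-06). Ccnd1, the cyclin that opens the cell cycle, ranged from 525 to 873 and from 124 to 399 (log2 fold change 1.58, SE 0.26, adjusted p 0.00014). Etv4 and Phlda1 lost their calls with mouse as a block (0.64, adjusted p 0.26, and 0.74, adjusted p 0.084), and Etv4, at a log2 fold change of 1.71, was at 1.02 without the sarcoma of M00235. Egr1 and Myc did not pass (log2 fold changes -0.27 and -0.65, adjusted p 0.43 and 0.14).

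Collagens were among the most abundant genes that were higher. Of 23 chains tested, 22 were higher and Col4a5 did not pass (log2 fold change -0.41, SE 0.39, adjusted p 0.36), with a median of 4.33, and Col2a1 of cartilage had too few counts. Col1a1, a chain of type I collagen, was at 1819, 2276 and 5917 TMM-scaled CPM in the lowest, median and highest sarcoma and at 66.3, 73.4 and 96.9 in muscles, without overlap (log2 fold change 5.39, SE 0.39, adjusted p 7.8e-08). Col20a1 had the largest difference of the list, at 151 to 488 in sarcomas and 1.4 to 3.41 in muscles (log2 fold change 7.18, SE 0.33, adjusted p 4e-09). It was at most 2.16 plain CPM in any lung, liver, spleen, brain or kidney library. Col4a1, of the basement membrane, ranged from 488 to 1263 and from 19.9 to 60.2 (log2 fold change 4.36, SE 0.36, adjusted p 2.2e-07).

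Other matrix genes were higher for 19 of 25 tested, and 6 did not pass (median log2 fold change 2.34). Sparc, a collagen-binding secreted protein, was at 3153, 4621 and 5532 TMM-scaled CPM in the lowest, median and highest sarcoma and at 190, 262 and 304 in muscles (log2 fold change 4.09, SE 0.23, adjusted p 1.3e-08). Postn, periostin, ranged from 320 to 910 and from 7.37 to 16.1 (log2 fold change 5.3, SE 0.32, adjusted p 2.3e-08), and both genes were without overlap. Dcn, decorin of connective tissue fibroblasts, did not pass, with 976 to 2105 in sarcomas and 1058 to 1820 in muscles (log2 fold change 0.05, SE 0.21, adjusted p 0.84). The Fn1 call was lost with mouse as a block (0.87, adjusted p 0.057). Without the sarcoma of M00248, Ccn1 and Ccn2, matrix proteins induced by mechanical load, were lower (-1.12 and -0.61, adjusted p 0.021 and 0.049).

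Proteases of the matrix and their inhibitors were higher for 21 of 23 tested (median log2 fold change 2.24), with Timp4 and Mmp9 not passing and 4 members with too few counts. Timp4 was lower without the muscle of M00238 or the sarcoma of M00235 (adjusted p 0.049 and 0.043). Mmp14, a membrane-bound collagenase, ranged from 216 to 557 TMM-scaled CPM in sarcomas and from 35.7 to 57.2 in muscles (log2 fold change 3.32, SE 0.24, adjusted p 8.2e-08). Mmp16, a close relative of it, had the largest difference, at 60.5 to 155 and 0.526 to 2.63 (log2 fold change 6.0, SE 0.35, adjusted p 1.9e-08). The inhibitor Timp1 was at 10.1 to 43.3 against 0.418 to 2.28 (log2 fold change 4.04, SE 0.48, adjusted p 6.8e-06). None of these 3 overlapped between groups.

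Fibroblast and mesenchymal genes differed less, with 11 of 20 higher, 2 lower and 7 not passing (median log2 fold change 0.78). Zeb1 ranged from 114 to 174 TMM-scaled CPM in sarcomas and from 23.8 to 49.8 in muscles (log2 fold change 1.93, SE 0.22, adjusted p 4.2e-06). Pdgfra, a receptor of fibroblasts, and Prrx1, a factor of limb mesenchyme, did not pass (log2 fold changes 0.61 and 0.36, adjusted p 0.064 and 0.15). Pdgfra was higher without the muscle of M00245 or the sarcomas of M00236 or M00237 (adjusted p 0.013 to 0.049). Dpt, a matrix protein of resting fibroblasts, was lower at 21.3 to 91.9 against 81.2 to 206, with overlap (log2 fold change -1.71, SE 0.37, adjusted p 0.0012). Pi16, also of resting fibroblasts, was lower (-1.43, adjusted p 0.046), but not with mouse as a block (-0.78, adjusted p 0.29). Its call held without the muscles of M00237 or M00238 or the sarcoma of M00248 (-2.06), and was lost without any of the other 9 samples (adjusted p 0.061 to 0.093).

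**Figure D4:**
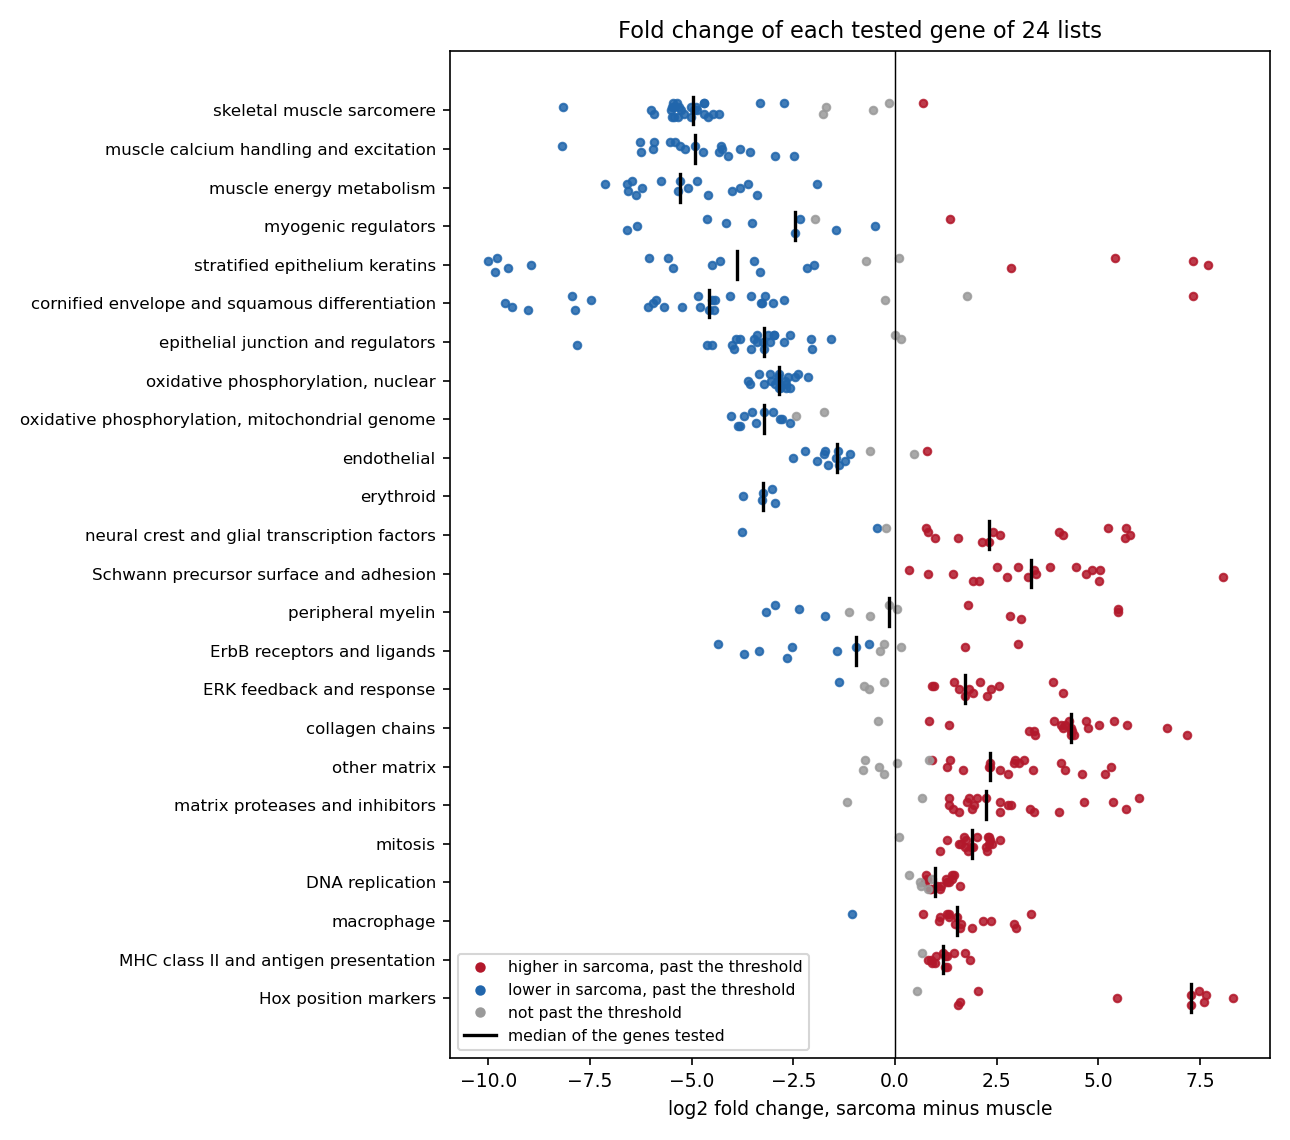
log2 fold change (sarcoma minus muscle) of each tested gene of 24 lists, red where higher and blue where lower past the threshold and grey otherwise, with the median of each list as a bar. The medians of the muscle, epithelium and respiration lists lie left of 0, and those of the Schwann surface, collagen and mitosis lists right of it. Some single genes lie on the other side of 0 from their median, among them Krt1, Flg2, Tpm3 and Col4a5. The Hox median of 7.28 is 5.71 with genes at 0 in all muscles set to their lower bound in pooled plain CPM.

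Genes of cell division were higher in sarcoma. Of 20 mitosis genes 19 were higher (median log2 fold change 1.89) and Ube2c did not pass (0.1, SE 0.29, adjusted p 0.77). Mki67, a marker of cycling cells, was at 74.8, 119 and 207 TMM-scaled CPM in the lowest, median and highest sarcoma and at 21.2, 26.1 and 36.2 in muscles, without overlap (log2 fold change 2.29, SE 0.25, adjusted p 3.2e-06). Of 20 DNA replication genes 15 were higher and 5 did not pass (median 0.98). When the muscle of M00246 and the sarcoma of M00238 were left out together, 10 were higher, against 31.4% of all genes tested in that fit (29.7% were lower).

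Of 15 cell cycle inhibitors and p53 targets tested, 3 were higher, 4 lower and 8 did not pass. Cdkn2a, which codes for the p16 and p19 proteins, was at 4.77, 25.1 and 48.0 TMM-scaled CPM in the lowest, median and highest sarcoma and at 0, 0.584 and 1.19 in muscles (log2 fold change 5.3, SE 0.71, adjusted p 2.2e-05). Cdkn1a, the p21 target of p53, was lower at 54.4 to 202 against 408 to 936 (log2 fold change -2.51, SE 0.35, adjusted p 2.7e-05). Both were without overlap. Bax, a p53 target that promotes cell death, was higher (log2 fold change 1.39, SE 0.42, adjusted p 0.01), but not with mouse as a block (0.72, adjusted p 0.11). Ccng1 and Phlda3, p53 targets too, were lower (log2 fold changes -2.54, SE 0.25, adjusted p 1.1e-06, and -0.94, SE 0.14, adjusted p 4.2e-05), while Mdm2, Zmat3 and Sesn2 did not pass (0.22, 0.3 and 0.32, adjusted p 0.21, 0.12 and 0.52), although Mdm2 was higher without the sarcoma of M00248 (0.3, adjusted p 0.048).

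Macrophage genes were higher for 16 of 17 tested and lower for Cd163, with a median log2 fold change of 1.52. Aif1 ranged from 8.2 to 25.1 TMM-scaled CPM in sarcomas and from 0.876 to 2.71 in muscles (log2 fold change 3.34, SE 0.35, adjusted p 1.9e-06), and C1qb, a complement chain, from 58.2 to 179 and from 20.9 to 51.4 (log2 fold change 1.61, SE 0.34, adjusted p 0.00083). Neither overlapped. Cd163, a scavenger receptor of resident macrophages, passed narrowly (log2 fold change -1.07, SE 0.43, adjusted p 0.041) and with mouse as a block it did not (-0.34, adjusted p 0.36). Its call was also lost without any of 7 of the 12 samples, the muscles of M00245, M00246 and M00249 and the sarcomas of M00235, M00236, M00237 and M00238 (adjusted p 0.052 to 0.099). Csf1r (log2 fold change 0.69, adjusted p 0.036) was lost without any of the muscles of M00237, M00238, M00245 and M00248 or the sarcomas of M00238 and M00248 (adjusted p 0.066 to 0.1) and with T2 alone for M00245 (adjusted p 0.071). Genes of MHC class II and antigen processing, with class I genes such as B2m and H2-K1, were higher for 13 of 14 tested (median 1.19). Groups did not overlap for 2 of the 14, against 43.3% of all genes, and H2-Aa did not pass. The H2-DMa call was lost without any of the muscles of M00237, M00238, M00245, M00246 and M00248 (adjusted p 0.06 to 0.094). It was also lost without the sarcomas of M00238 or M00248 (adjusted p 0.077 and 0.15).

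None of 14 T and cytotoxic lymphocyte genes had enough counts to be tested, and none exceeded 3.19 plain CPM in a sarcoma or 1.04 in a muscle. With no filter on counts all 14 were tested and 2 were higher, against 18.3% of all genes in that fit. B and plasma cell genes did not pass for any of 3 tested, although their summed level was 601 TMM-scaled CPM in the sarcoma of M00248, against a sarcoma median of 55.7 and 61.0 to 104 in muscles. Neutrophil and mast cell genes did not pass for any of 6 tested, among them Cpa3 of mast cells at 2.73 to 18.2 TMM-scaled CPM in sarcomas and 8.49 to 27.9 in muscles (log2 fold change -0.55, SE 0.36, adjusted p 0.2). Erythroid genes, at a summed 5996 to 28490 TMM-scaled CPM in muscles and 342 to 1653 in sarcomas, were lower for all 5 tested (median -3.25, or -2.61 without the muscle of M00249, which was highest). Hba-a2, an alpha globin, was at 110 to 671 in sarcomas and 1768 to 9978 in muscles (log2 fold change -3.25, SE 0.55, adjusted p 0.00015), or -2.66 without that muscle, and its twin Hba-a1 can share its reads.

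Endothelial genes were lower for 11 of 14 tested and higher for Eng alone, with a median log2 fold change of -1.42. Flt1, a VEGF receptor, was at 7.38, 16.4 and 29.1 TMM-scaled CPM in the lowest, median and highest sarcoma and at 64.3, 108 and 144 in muscles, without overlap (log2 fold change -2.5, SE 0.34, adjusted p 2.1e-05). Plvap, of fenestrated vessels, did not pass (0.47, SE 0.22, adjusted p 0.072), but was higher with mouse as a block (0.72, adjusted p 0.025) and without the muscle of M00246 or the sarcoma of M00237 (adjusted p 0.049 and 0.044). All 14 endothelial genes were on the muscle side within the muscle libraries. Tek lost its call with mouse as a block (-1.18, adjusted p 0.059). Smooth muscle genes were lower for 7 of 9 tested and did not pass for 2, and with mouse as a block 5 were lower, against 26.5% of all genes in that fit.

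Among other tissues that a section could hold, none of 8 hepatocyte genes tested passed, with albumin (Alb) at 36.6 to 127 TMM-scaled CPM in sarcomas and 51.8 to 125 in muscles. Adipocyte genes split, with 2 higher, 2 lower and 3 not passing. Lpl, which frees fatty acids from blood lipids in fat and muscle, was lower at 21.7 to 218 against 423 to 1237 (log2 fold change -3.07, SE 0.53, adjusted p 0.00017), and all 7 adipocyte genes were on the muscle side within the muscle libraries. Plin1 and Adipoq, made by fat cells, were higher by log2 fold changes of 3.39 (SE 0.67, adjusted p 0.00057) and 3.06 (SE 1.04, adjusted p 0.019). The Adipoq call was lost without the sarcoma of M00235 (2.31, adjusted p 0.058), and Adipoq was at 4.48 without the muscle of M00249. Cfd, an adipocyte complement protease that did not pass (3.0, adjusted p 0.056), was higher without the muscle of M00249 (4.48, adjusted p 0.017), the sarcoma of M00236 (adjusted p 0.033) or that of M00237 (adjusted p 0.032).

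Hox genes, which record position along the body axis, were higher in sarcoma where they could be tested. Of 29 in the list only 11 had enough counts, 10 of them higher, and with no filter on counts 27 were tested and 21 were higher. A gene near 0 in all muscles enters the test only through its sarcoma level, so these counts are a description. Hoxb7 was at 11.9, 20.5 and 32.8 TMM-scaled CPM in the lowest, median and highest sarcoma and at most 0.175 in any muscle. Hoxb8 was at 1.42 to 11.2 in sarcomas and at 0 in all 6 muscles, at least 129-fold higher, taking 3 counts over all muscles as the floor and pooled plain CPM as the level. Hoxc4 was also at 0 in all muscles, at least 116-fold higher in sarcoma by that measure. Both bounds would be lower in TMM-scaled CPM, whose factors were 0.65 to 0.803 in muscles and 1.06 to 1.56 in sarcomas.

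Clusters and tumours differed. The sums below cover only the genes of each cluster that are in the list, and Hoxb8 is not among them. Summed plain CPM was 56.8 to 182 for HoxB, 3.01 to 139 for HoxC, 1.66 to 48.8 for HoxA and 12.2 to 34.3 for HoxD in the 5 sarcomas other than M00245, and T1 and T2 of M00245 were at 129 and 133 for HoxB. HoxD of T2 was above the others at 43.4. In muscles the sums were at most 0.995 for HoxB, 0.519 for HoxC and 1.82 for HoxA, and 3.2 to 6.09 for HoxD. The sarcoma of M00237 had the lowest HoxA, HoxC and HoxD sums, while its HoxB sum lay among the others, and without it 19 Hox genes had enough counts, 18 of them higher (32.4% of all genes in that fit). Without the muscle of M00246, or that of M00249, the counts were also 18 of 19. Leaving out a muscle lowers the number of samples in which the filter asks for counts, so genes low in 1 sarcoma can enter. A gene near 0 in muscles enters only through its sarcoma level, so these counts too are a description. Hoxd8, which muscle does express, ranged from 4.97 to 15.8 TMM-scaled CPM in sarcomas and from 2.25 to 4.74 in muscles (log2 fold change 1.54, SE 0.3, adjusted p 0.00048).

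**Figure D5:**
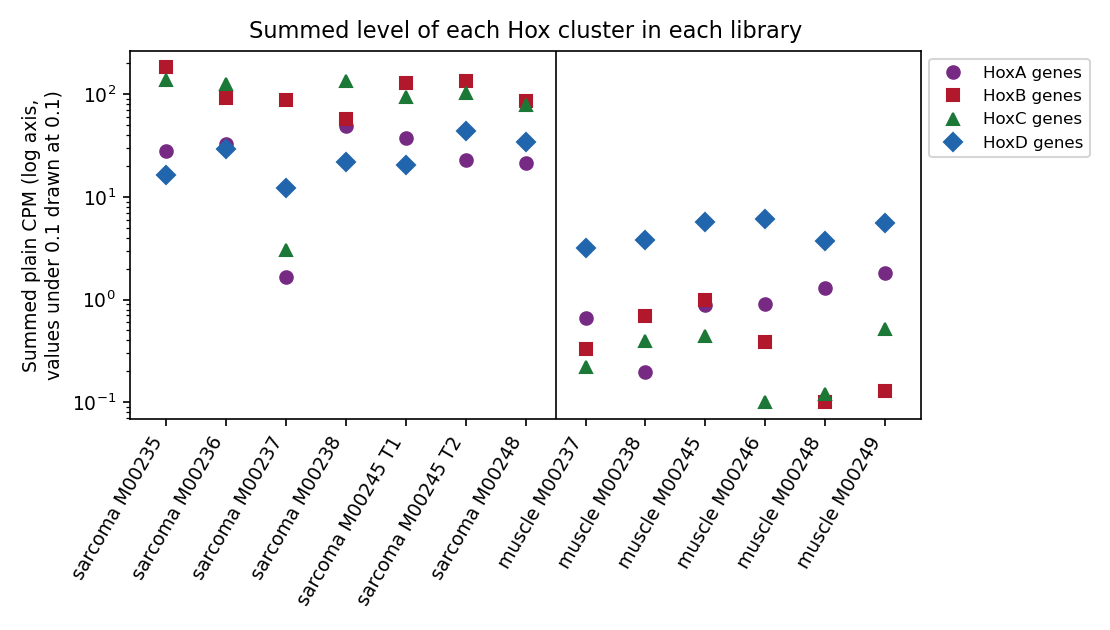
Summed plain CPM of the listed genes of each Hox cluster (Hoxb8 is not among them) on a log axis in each of the 7 sarcoma and 6 muscle libraries, with values under 0.1 drawn at 0.1. HoxB sums lie at 56.8 or above in the sarcomas and at 0.995 or below in the muscles, and the sarcoma of M00237 is lowest for HoxA, HoxC and HoxD.

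Imprinted growth genes and the IGF axis were mixed. H19, a noncoding RNA, was at 8.9 TMM-scaled CPM in the median sarcoma and 402 in the median muscle (log2 fold change -5.33, SE 0.61, adjusted p 4.8e-06), and its neighbour Igf2 at 0.827 to 3.01 and 16.8 to 33.8 (log2 fold change -3.63, SE 0.34, adjusted p 8.3e-07). Mest went the other way, at 17.7 to 62.1 against 0 to 1.38 (log2 fold change 5.33, SE 0.51, adjusted p 9.1e-07), as did Grb10, an adaptor that restrains insulin signalling, at 72.7 to 134 against 13.6 to 26.6 (log2 fold change 2.23, SE 0.2, adjusted p 6.1e-07). All 4 were without overlap. Igfbp7 ranged from 387 to 958 and from 120 to 151 (log2 fold change 2.11, SE 0.22, adjusted p 2e-06).

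The genes with the largest differences, named by a rule of size, abundance and no overlap, were of several kinds. Among the 12 highest, Car6, a secreted carbonic anhydrase, was at 14.6, 22.6 and 37.4 TMM-scaled CPM in the lowest, median and highest sarcoma and at most 0.193 in muscles (log2 fold change 8.38, SE 0.48, adjusted p 1.6e-08, or 8.96 without the muscle of M00249), and at most 0.517 plain CPM in any liver, lung, spleen, brain or kidney. Gpr17, a receptor known from oligodendrocyte precursors, was at 16.9 to 142 against at most 0.387 (log2 fold change 8.15, SE 0.78, adjusted p 9.8e-07), or 7.48 without the sarcoma of M00248, and at 7.04 to 7.98 plain CPM in brain. Adam12, a protease of muscle precursors and tumour stroma, was at 26.9 to 71.5 against at most 0.682 (log2 fold change 8.14, SE 0.53, adjusted p 3.9e-08), or 9.81 without the muscle of M00245.

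Cdh10, a neural cadherin, was at 13.7 to 44.0 TMM-scaled CPM in sarcomas against at most 0.193 in muscles (log2 fold change 7.79, SE 0.47, adjusted p 2.3e-08). Clca3a2 and Alox12e, known from epithelia, were at 5.7 to 79.3 and 2.02 to 41.2 in sarcomas and at most 0.278 and 0.184 in muscles (log2 fold changes 8.08, SE 0.82, adjusted p 1.5e-06, and 8.12, SE 0.89, adjusted p 3.2e-06). Plppr1 and Il1rapl1, membrane proteins of neurons, were at 0 in all muscles and at least 131-fold and 122-fold higher in pooled plain CPM. Rlbp1 and Pnlip, known from retina and pancreas, were at 0 in all muscles too and at least 190-fold and 156-fold higher by that measure. In M00245 both came mostly from T2, with 46.0 plain CPM each against 0.827 and 1.65 in T1, and both calls held without the sarcoma of M00245 (adjusted p 0.00056 and 0.00031). Fabp7 and Hoxb8 complete the 12.

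The 12 lowest held, besides Krt4, Krt13, Krt76 and Krt36, Sprr3 of the cornified envelope (0.238 to 1.62 TMM-scaled CPM in sarcomas and 422 to 1388 in muscles, log2 fold change -9.59, SE 0.55, adjusted p 1.6e-08) and Defb4, an antimicrobial defensin (at most 0.709 and 176 to 472, log2 fold change -9.92, SE 0.52, adjusted p 8.2e-09). Serpinb3c, Lyg1, Krtap13 and Krtap3-1 were at most 1.59 in every sarcoma, and Serpinb3c was at a log2 fold change of -10.03, or -10.67 without the sarcoma of M00238. Krtap13 and Krtap3-1, keratin-associated proteins of hair and other hard keratin structures, reached 1939 and 1928 in the muscle of M00238, and without it their log2 fold changes were -8.54 and -8.05 in place of -9.85 and -9.59. Ces1h, a carboxylesterase, was at most 0.0974 in sarcomas and 44.7 to 72.1 in muscles (log2 fold change -10.3, SE 0.35, adjusted p 6.3e-10). Lrrc14b, a leucine-rich repeat gene, was at 0 in all 6 sarcomas and at 16.3 to 40.8 in muscles. It was at least 306-fold lower, taking 3 counts over all sarcomas as the floor and pooled plain CPM as the level.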

How the data were processed

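The deposited tissue table holds expected counts per gene from 3' end libraries (QuantSeq, per the labels' protocols). Which aligner, counter and genome build were used is not stated in any label or header. The tests had been written for counts, but 8.35% of the values in the deposited table were not whole, so expected counts were rounded, which moved the total by 9.56e-05%. Of 54838 genes 85 had no symbol, and 0 value columns were left unmapped. Both sarcoma libraries of M00245 were summed, which left 6 sarcomas and 6 muscles.

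Genes passing filterByExpr with a minimum count of 10 were fitted with edgeR 4.0.16 in R 4.3.3 (TMM scaling, quasi-likelihood test, Benjamini-Hochberg threshold 0.05). Only sarcoma and muscle samples entered the fit, without covariates. SE is the log2 fold change divided by the square root of F. Alternatives used DESeq2 1.42.0, glmTreat, other filters and scalings, samples left out in turn, and mouse as a block. The block rests on 4 mice that gave both tissues. Correlations of their paired deviations were 0.33 for M00237, -0.075 for M00238, 0.012 for M00245 and 0.077 for M00248. The 12 samples came from 8 mice, per the labels, and the main fit treats both samples of those 4 mice as independent. The fitting code was tested on simulated data.

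Members and gene lists (684 genes in 40 lists) were chosen with earlier results of these data known, so list counts are descriptions. The text names Sox10, Erbb3, Myh4, Krt13, Cd74, Nrg1, Erbb2, Erbb4, Egfr, list members, and the 12 genes of largest difference each way. Those 12 had to pass the test, reach 5 CPM in 1 group and not overlap, and unnamed gene models were passed over. Slpi, Aldh3a1, Chchd10 and Hspb6 were chosen after their values were seen. So were the split of the muscle libraries and the joint removal of 2 samples. A count of 0 allows up to 3 counts, or 0.299 to 0.62 CPM per library, a limit of counting error only. Fibroblast libraries and the deposited CPM tables were not used here. Some genes of the lists, and some promoter sequences, are not reported here.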

Additional observations from a re-analysis of the deposited data

Results flagged for a closer look

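In 13 of 98 groups of 6 samples, 1 sample lay far from the other 5 by Dixon's ratio. Chance flags about 1 in 20 groups. Among single genes, Sox10 was at 673 TMM-scaled CPM in the sarcoma of M00235, Erbb3 at 27.6 in the muscle of M00237, Myh4 at 116 in the sarcoma of M00236 and Nrg1 at 1.75 in the muscle of M00246, each the far sample of its group. The first 3 were high and Nrg1 was low.

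The other values are summed levels of a list, in TMM-scaled CPM, each the highest of its group. The sarcoma of M00238 was far above the other sarcomas for sarcomere genes at 7220, calcium handling genes at 861 and muscle energy genes at 1623. Neuron genes reached 85.7 in the sarcoma of M00245, B and plasma cell genes 601 in that of M00248 and interferon-stimulated genes 266 in that of M00236. Genes of the IGF axis reached 2585 in the sarcoma of M00235. Among the muscles, erythroid genes reached 28490 in M00249 and hepatocyte genes 293 in M00246.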

How the results depend on the processing

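The count of 9545 genes past the threshold was 9525 with RLE scaling, 9788 with DESeq2, 11177 with no filter on counts, 7910 at a mean of at least 5 CPM, 9365 without mitochondrial, muscle and epithelium genes, 9318 with the style of the sample codes as a covariate and 10515 in 1 fit with liver, lung, spleen and brain. Only in mice with 2-digit codes it was 7431, and only in mice with 1-digit codes 8153. Tested against a log2 fold change of 1 it was 4293, with 2033 higher and 2260 lower. With mouse as a replicate block it was 8351 (4298 higher and 4053 lower of 15284 tested), of which 3917 and 3844 were also called without the block. With the block 22 named genes lost their call and 12 gained it. With the style of the sample codes as a covariate 12 named genes lost their call and 7 gained it. Leaving out each of the 12 samples in turn gave 9390 to 9692 called genes, 4820 to 5141 higher and 4538 to 4696 lower. Removing the muscle of M00246 and the sarcoma of M00238 together, chosen after seeing the data, gave 9019. No filter moved the median of all genes by 0.25 to a log2 fold change of 0.31. Of 574 named genes 181 changed their call or direction in at least 1 alternative and 5 reversed. Mag was at -1.49 with T1 alone for M00245. In mice with 2-digit codes only, Lmod1 was at 0.0, Drp2 at 0.38, Cd163 at 0.1 and Igkc at -0.73. The cause of these changes was not tested. Depth limits genes of low count most, and the fit with no filter tested 31836 genes.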

Other observations

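The tumours T1 and T2 of mouse M00245, summed in the comparison, differed from each other. T1 had 4813 plain CPM of sarcomere genes and T2 661, and calcium handling genes were at 529 and 19.2. Genes of B and plasma cells were at 460 plain CPM in T1 and 63.7 in T2, those of adipocytes at 439 and 40.2, and those of MHC class II and antigen presentation at 3158 and 1082. T2 was higher for mitosis genes (1454 against 873), neuron genes (197 against 60.8) and Cdkn2a (95.8 against 46.1). Schwann lineage lists were close, at 10563 plain CPM in T1 and 11433 in T2, and so were Hox genes at 281 and 301. Y-linked genes were at 225 plain CPM in T1 and 30.9 in T2. With 1 library of each, these differences have no replicate check.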
